A study of Mus musculus with 12 samples.

Results

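The genes described here are 34 regulators of embryonic development from the T-box, GATA and Forkhead families of transcription factors: 11 T-box genes (Tbx1, Tbx2, Tbx3, Tbx4, Tbx5, Tbx6, Tbx15, Tbx18, Tbx20, Tbx21 and Eomes), 6 Gata genes (Gata1 to Gata6) and 17 Forkhead genes (Foxa1, Foxa2, Foxa3, Foxb1, Foxc1, Foxc2, Foxd1, Foxd2, Foxd3, Foxe1, Foxf1, Foxf2, Foxi1, Foxl1, Foxl2, Foxj1 and Foxp2). They were chosen by symbol, with no filter on their level, from the 41388 genes counted in each library, and all 34 symbols matched an Ensembl gene. None carries a homeobox, and the question they bear on is whether genes of this kind differ in neurons that express mutant huntingtin, beside the homeobox genes that do.

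The study compared primary cortical neurons from Swiss Webster mouse embryos at embryonic day 16. All cultures received lentivirus at day 5 in vitro, and RNA was taken at day 10 after ribosomal RNA removal. The lentivirus carried a vector without huntingtin (control vector, 4 libraries), huntingtin exon 1 bearing 25 glutamines (Htt-25Q, titled wild type, 4 libraries) or the same exon bearing 72 (Htt-72Q, titled mutant, 4 libraries). Control vector 2 carries the infection label Control vector where the other 3 of its group carry Empty vector, and no source used here gives the promoter that drives the constructs or the species of their sequence. Expansion of the glutamine stretch in exon 1 of huntingtin causes Huntington disease, and a fragment of exon 1 is a common laboratory model of it rather than the whole protein.

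T-box proteins bind DNA through the T domain first described in Brachyury and specify mesoderm, heart chambers and limbs. GATA proteins carry zinc fingers that read the GATA motif and direct blood, endoderm and heart lineages, while Forkhead proteins bind DNA through a winged helix, and the FoxA proteins among them can open closed chromatin. Many of these genes are known targets of Polycomb repression in neurons, and only a few have known cortical roles, among them Eomes in intermediate progenitors, Foxp2 in deep-layer neurons and Foxj1 in ciliated ependymal cells.

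Promoters of 3 of the genes that rose, and of 1 that was not called, are shown to give the range of density of the dinucleotide CG (its count over that expected from the base composition), a sequence feature of promoters that Polycomb can hold silent. Gata1 was picked as the lowest of the 25 promoters found, and it does not stand for the uncalled members: the promoter of uncalled Foxc1 has the highest density of all 25, and that of Foxd1, which rose, lies below the median of the uncalled. Each runs 5′ to 3′ on the gene's strand, with 250 bases before and 50 bases after the start, from RefSeq on GRCm38.p6, and capitals mark each CG. Foxa1 lies at chr12:57546062-57546361 on the minus strand, Foxd1 at chr13:98353995-98354294 on the plus strand, Tbx20 at chr9:24774254-24774553 on the minus strand and Gata1, which was not called, at chrX:7967861-7968160 on the minus strand.
Foxa1: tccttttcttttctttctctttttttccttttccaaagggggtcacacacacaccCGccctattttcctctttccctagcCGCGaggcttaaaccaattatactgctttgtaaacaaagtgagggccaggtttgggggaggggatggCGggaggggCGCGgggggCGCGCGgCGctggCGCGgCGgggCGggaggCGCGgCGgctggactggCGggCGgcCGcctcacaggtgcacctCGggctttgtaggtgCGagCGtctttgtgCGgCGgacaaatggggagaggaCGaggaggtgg
Foxd1: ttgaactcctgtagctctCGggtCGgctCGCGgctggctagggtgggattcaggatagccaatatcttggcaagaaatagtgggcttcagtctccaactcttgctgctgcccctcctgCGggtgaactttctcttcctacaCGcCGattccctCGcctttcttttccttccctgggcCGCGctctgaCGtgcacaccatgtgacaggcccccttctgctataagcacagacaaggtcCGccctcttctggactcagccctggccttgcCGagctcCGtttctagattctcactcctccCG
Tbx20: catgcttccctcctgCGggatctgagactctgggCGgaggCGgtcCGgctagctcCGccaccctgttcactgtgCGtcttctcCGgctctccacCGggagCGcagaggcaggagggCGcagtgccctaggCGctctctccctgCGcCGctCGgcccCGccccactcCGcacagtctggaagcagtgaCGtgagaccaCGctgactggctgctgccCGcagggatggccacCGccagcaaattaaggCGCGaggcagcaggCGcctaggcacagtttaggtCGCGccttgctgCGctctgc
Gata1: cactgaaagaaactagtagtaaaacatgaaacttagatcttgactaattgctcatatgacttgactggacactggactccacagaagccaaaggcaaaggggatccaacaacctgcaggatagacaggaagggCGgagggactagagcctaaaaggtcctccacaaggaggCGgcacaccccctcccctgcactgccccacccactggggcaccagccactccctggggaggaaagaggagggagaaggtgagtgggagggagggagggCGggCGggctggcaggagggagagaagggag
The Foxa1 and Tbx20 promoters hold 26 CG each, the Foxd1 promoter 15 and the Gata1 promoter 4.

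Levels are given as counts per 1000000 of the library total after TMM scaling, written CPM, or as counts where a gene had few. Total counts ranged from 12.4 M to 27.5 M (M for 1000000 counts) over the 12 libraries, with the lowest mean in Htt-72Q (15.2 ± 3.32 M, SD, n = 4). A count of 0 over all 4 libraries of a group allows a level of up to 0.0422 CPM in control vector, 0.0339 CPM in Htt-25Q and 0.0469 CPM in Htt-72Q (3 counts in the group). These limits, and the intervals of count ratios below, cover counting error only. The libraries also fell into 2 classes of 6 that cross the groups, split at the widest gap in Ctnnd1: Gapdh lay at 35.4 to 50.2 counts per 1000000, unscaled, in control vector 2 and 4, Htt-25Q 3 and Htt-72Q 1, 2 and 4, and at 9.16 to 20.3 in the others. Over the whole gene Htt was at 143.7 ± 65.1 CPM under control vector, 148.5 ± 26.7 under Htt-25Q and 166 ± 33.4 under Htt-72Q (SD, n = 4), and Htt was not called in any comparison (adjusted p of 0.637 for Htt-72Q against control vector, 0.745 against Htt-25Q and 1 for Htt-25Q against control vector, edgeR quasi-likelihood test). Since the constructs hold exon 1 only, these counts do not check the labels. The summed level of 10 excitatory neuron markers was 3277 ± 74.6 CPM in Htt-72Q and 4961 ± 286 CPM in control vector, and 9 of the 10 were called lower. The 8 inhibitory neuron markers summed to 133.2 ± 25.4 CPM in Htt-72Q (109 to 168), below the 224.6 to 288 of control vector and the 185.2 to 314 of Htt-25Q, with Gad1, Sst and Lhx6 called lower against control vector. The 8 progenitor markers summed to 393.5 ± 25.4 CPM (25.45 before rounding) in Htt-72Q (359 to 418), above the 306.6 to 340 of control vector and overlapping the 290.2 to 379 of Htt-25Q, with 0 called. The 8 astrocyte and the 8 oligodendrocyte lineage markers had 0 called. The part of these changes in the members' differences was not tested. In bulk RNA, fewer cells of a type and less RNA per cell cannot be told apart.

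Most of the 34 genes were near 0 in the control and Htt-25Q cultures and more of them were detected in Htt-72Q. At least 1 count was present for 21 of the 34 in control vector, for 21 in Htt-25Q and for 32 in Htt-72Q. By library, 12, 13, 14 and 12 of the 34 were detected in control vector 1 to 4, and 16, 15, 12 and 16 in Htt-25Q 1 to 4. In Htt-72Q 1 to 4 the numbers were 26, 24, 20 and 27. All 4 Htt-72Q libraries lay above all 8 others, although the mean depth was lowest in Htt-72Q. The genes with counts in Htt-72Q alone were Tbx20, Gata6, Foxa2, Foxc2, Foxd2 and Foxd3. Gata5, a heart and endoderm regulator, and Foxb1, a gene of the developing hypothalamus, had 0 counts in all 12 libraries, which allows up to 0.0134 CPM over the series. The mean was highest in Htt-72Q for 28 of the 34, and the exceptions were Tbx6, Tbx21, Eomes and Gata1 beside the 2 genes without counts. The same counts of genes detected, and of genes highest in Htt-72Q, are not given here over all genes. Whether they are particular to the 34 was not tested.

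**Figure D1:**
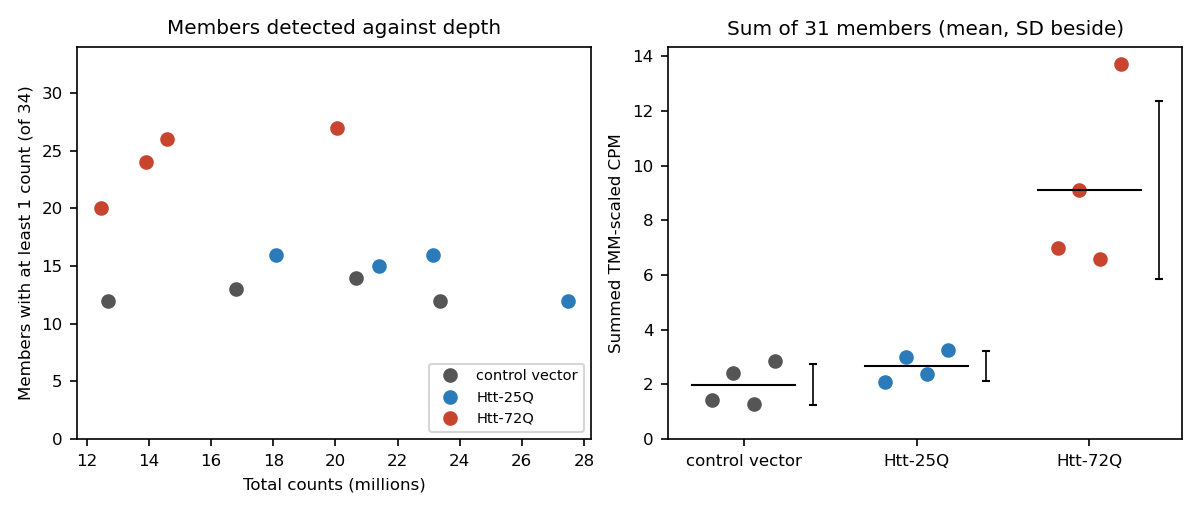
Left, the number of the 34 genes with at least 1 count (vertical axis) against total counts in M (horizontal axis) for the 12 libraries, coloured by group. Right, the summed TMM-scaled CPM of 31 of the genes, without Foxp2, Eomes and Foxj1, per library (points), with the group mean (line) and SD (bar beside it). The 4 Htt-72Q libraries detect 20 to 27 genes, above the 12 to 16 of the other 8 libraries, and their sums of 6.60 to 13.7 CPM lie above the others.

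The summed level of the 34 genes was 16 ± 4.32 CPM in Htt-72Q against 8.42 ± 1.85 in Htt-25Q and 7.81 ± 2.0 in control vector (SD, n = 4). The groups overlapped in this sum: Htt-72Q 3, at 10.2 CPM, lay below control vector 1 (10.6) and Htt-25Q 1 (10.3). Much of the sum in control vector and Htt-25Q came from Foxj1, Foxp2 and Eomes. Without those 3 the sum was 9.11 ± 3.26 CPM in Htt-72Q against 2.69 ± 0.545 in Htt-25Q and 1.99 ± 0.758 in control vector. The highest Htt-25Q library reached 3.27 CPM and the lowest Htt-72Q library 6.60 CPM, so the groups did not overlap in this smaller sum. Leaving Foxj1 out was added after the data were seen, and with it in the sum the values were 12.7 ± 4.42, 6.14 ± 1.34 and 4.98 ± 0.640 CPM in the same order.

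With every gene that had a count in the fit, 6 of the 34 genes rose in Htt-72Q against control vector and none fell: Foxa1, Foxd1, Foxf1, Tbx20, Tbx3 and Gata2 (edgeR quasi-likelihood test, Benjamini-Hochberg adjusted p under 0.05 over 27365 genes). The share of all tested genes called higher in this comparison was 3.69%, and the share called lower was 6.91%. Against Htt-25Q again 6 rose and none fell: Foxd1, Foxa1, Foxf1, Tbx3, Tbx20 and Tbx18. The shares of all tested genes there were 3.41% higher and 6.6% lower. Both comparisons use the same Htt-72Q libraries, so the 5 genes called in both are not independent evidence. Among all 14115 tested genes with a mean under 1 CPM, where 30 of the 32 tested members also lie, 1.27% were called higher against control vector and 1.21% against Htt-25Q, beside 6 of 30 members in each. With scaling to library totals alone, 6 members were called against control vector and 8 against Htt-25Q, while the split over all genes moved from 1009 higher and 1891 lower to 1590 and 1496 against control vector, and from 932 and 1805 to 1449 and 1480 against Htt-25Q. With that scaling, the median log2 fold change of the 14707 genes with enough counts moved from 0.0012 to 0.112 against control vector. Against Htt-25Q it moved from 0.0092 to 0.102. Nothing in the labels says that the 4 libraries of a group came from separate cultures, so p-values measure only the spread between these libraries.

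**Figure D2:**
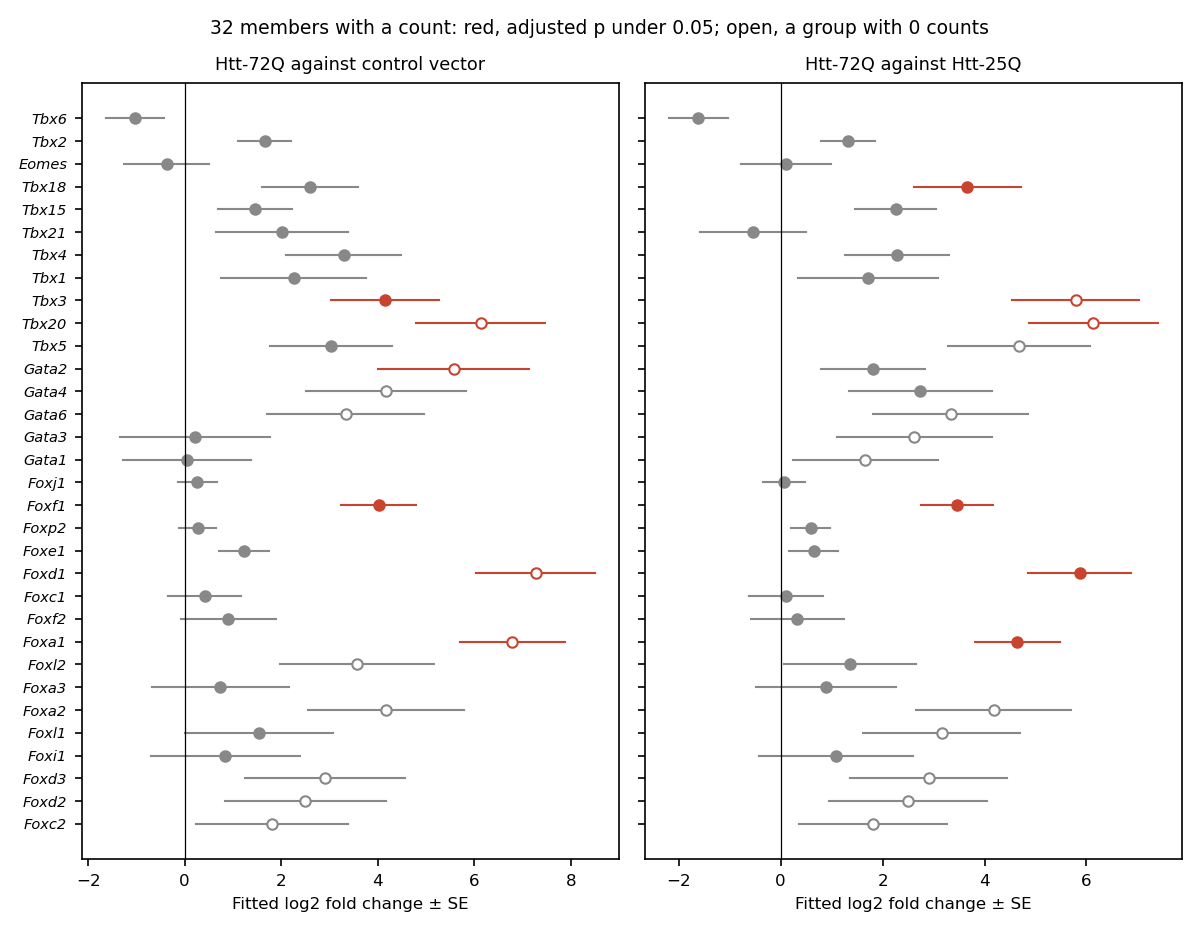
Fitted log2 fold change with its SE (horizontal axis) of the 32 genes with a count, in Htt-72Q against control vector (left) and against Htt-25Q (right); red marks an adjusted p under 0.05 and open circles a comparison in which a group had 0 counts, where the fitted value is set by the prior count and is no bound. In each panel 30 of the 32 lie to the right of 0, and 6 are red.

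Foxa1, the FoxA pioneer factor of endoderm and prostate and breast epithelium (ENSMUSG00000035451, chr12:57540631-57546121, minus strand, GRCm38), had the smallest adjusted p of the 34 genes against control vector. Its level was 0.514, 0.533, 1.05 and 0.860 CPM in Htt-72Q 1 to 4, from 8, 8, 13 and 18 counts. It had 0 counts in all 4 control libraries, and 1 count in each of Htt-25Q 1 and 4 and 0 in the other two. No Htt-72Q library overlapped either group. The 47 counts in Htt-72Q against 0 in control vector put Foxa1 at least 17.4-fold higher (3 counts over the group as the floor; adjusted p = 0.000986). Against 2 counts in Htt-25Q the ratio was 32.5 (95% counting interval 8.51 to 276, adjusted p = 0.00238), and 52.0 without Htt-25Q 4.

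Foxd1, a regulator of kidney stroma and ventral retina (ENSMUSG00000078302, chr13:98354242-98356703, plus strand), stood at 0.642, 0.799, 0.241 and 2.34 CPM in Htt-72Q 1 to 4. It had 0 counts in every control library and 1 count, in Htt-25Q 3, among the Htt-25Q libraries. Every Htt-72Q library was above every other, with Htt-72Q 4 the highest at 49 of the 74 counts. Foxd1 was at least 27.4-fold higher than in control vector (adjusted p = 0.00153) and at least 13.8-fold higher without Htt-72Q 4. The ratio to Htt-25Q was 102 (95% counting interval 17.8 to 4098, adjusted p = 0.00181). That ratio was 51.4 without Htt-72Q 4, and without Htt-25Q 3 the bound was at least 23.9-fold.

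Foxf1, which directs lateral plate mesoderm and lung vessels (ENSMUSG00000042812, chr8:121084386-121088144, plus strand), reached 1.09, 1.20, 0.241 and 3.44 CPM in Htt-72Q 1 to 4. It was at 0.0447, 0.0601, 0.0515 and 0.238 CPM in control vector 1 to 4, and at 0.131, 0.0941, 0.226 and 0.0563 CPM in Htt-25Q 1 to 4. The groups did not overlap, although Htt-72Q 3, with 3 counts, lay just above control vector 4. The log2 fold change was 4.02 ± 0.78 (SE) against control vector (adjusted p = 0.00252) and 3.47 ± 0.71 against Htt-25Q (adjusted p = 0.00383). Without Htt-72Q 4 these values were 3.18 and 2.65 (2.645 before rounding), and without control vector 4 the first was 4.74. Foxf1 is 28.0 kb from Foxc2 and 39.8 kb from Foxl1 on chromosome 8, and those neighbours, regulators of lymphatic vessels and gut mesenchyme, had 1 and 3 counts in Htt-72Q, all in Htt-72Q 3, the library with the fewest Foxf1 counts of its group.

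Tbx20, a heart chamber gene (ENSMUSG00000031965, chr9:24720812-24774303, minus strand), had 0 counts in all 8 libraries of the other groups. In Htt-72Q 1 to 4 it had 7, 14, 1 and 8 counts, or 0.449, 0.932, 0.0804 and 0.382 CPM. Htt-72Q 3 thus stood above the others by a single count. Tbx20 was at least 11.1-fold higher than in control vector (adjusted p = 0.0143) and at least 13.8-fold higher than in Htt-25Q (adjusted p = 0.0108).

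Tbx3, a T-box repressor of limb, mammary gland and heart conduction tissue (ENSMUSG00000018604, chr5:119670669-119684724, plus strand), had 5, 1, 4 and 15 counts in Htt-72Q 1 to 4, or 0.321, 0.0666, 0.322 and 0.717 CPM. It had 1 count in control vector 2, or 0.0601 CPM, and none in the other 3 control libraries or in Htt-25Q. The groups did not overlap, but Htt-72Q 2 and control vector 2 each rest on 1 count. The ratio to control vector was 27.8 (95% counting interval 4.55 to 1140, adjusted p = 0.0298). That call was lost without control vector 1 (adjusted p = 0.0787), 3 (0.0776) or 4 (0.0691), without Htt-72Q 4 (0.0995, with a ratio of 16.5), and with the number in the title as a block (0.071), but not with the preparation as a block (0.0476). Without control vector 2, Tbx3 was at least 7.09-fold higher. Against Htt-25Q it was at least 11.5-fold higher (adjusted p = 0.00833), and at least 6.86-fold higher (6.855 before rounding) without Htt-72Q 4.

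Tbx18, a gene of the sinoatrial node, epicardium and pericytes (ENSMUSG00000032419, chr9:87702800-87731260, minus strand), was at 0.0642, 0.666, 0.483 and 1.29 CPM in Htt-72Q 1 to 4. It was at 0.179, 0, 0 and 0.238 CPM in control vector 1 to 4 and at 0, 0, 0.113 and 0.0563 CPM in Htt-25Q 1 to 4. Htt-72Q 1, with 1 count, lay within the range of both other groups. The log2 fold change was 3.66 ± 1.05 against Htt-25Q (adjusted p = 0.0355) and 2.6 ± 0.99 against control vector (adjusted p = 0.118). The call against Htt-25Q was lost without Htt-72Q 2 (adjusted p = 0.0714) or 4 (0.132, with a log2 fold change of 3.0), without Htt-25Q 1 (0.0986), 2 (0.0941) or 4 (0.0867), and with the library class as a term (0.074), and the log2 fold change was 4.79 without Htt-25Q 3.

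Gata2, needed by blood stem cells and by some inhibitory neurons of the brainstem (ENSMUSG00000015053, chr6:88193891-88207030, plus strand), had 3, 9, 0 and 9 counts in Htt-72Q 1 to 4, or 0.193, 0.599, 0 and 0.430 CPM. It had 0 counts in control vector and 1, 2, 0 and 4 in Htt-25Q 1 to 4. Htt-72Q 3 was at 0 like all control libraries, so the groups overlapped. Gata2 was at least 7.78-fold higher than in control vector (adjusted p = 0.0357), and against Htt-25Q its log2 fold change was 1.81 ± 1.02 (adjusted p = 0.349). The call against control vector was lost without any 1 of control vector 1 to 4 (adjusted p = 0.0709, 0.0747, 0.0678 and 0.0598), without Htt-72Q 2 (0.0897) or 4 (0.0764), with the library class as a term (0.0664) and in a fit of the 2 groups alone (0.0531).

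**Figure D3:**
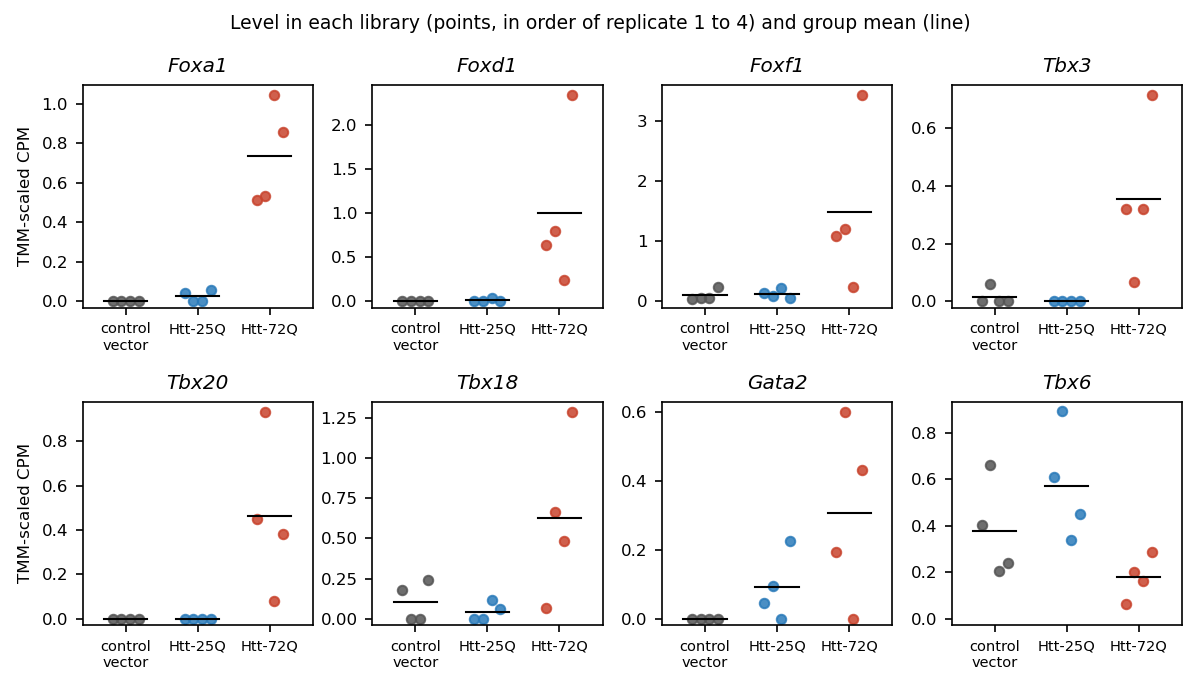
TMM-scaled CPM (vertical axis, a scale of its own in each panel) of the 7 genes called in a comparison with Htt-72Q, and of Tbx6, in the 12 libraries; points are libraries 1 to 4 from left to right and lines are group means. For Foxa1, Foxd1, Foxf1, Tbx3 and Tbx20 the 4 Htt-72Q libraries lie above the 8 others, for Tbx18 and Gata2 they overlap, and Tbx6 is lowest in Htt-72Q.

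Foxa1, Foxd1, Foxf1, Tbx3 and Tbx20 were the members whose Htt-72Q libraries all lay above those of control vector, and the same 5 lay apart from Htt-25Q. Over all tested genes, 5.46% and 6.35% lay apart in this direction. For each of the 5 the exact two-sided permutation p over 4 against 4 libraries was 0.0286, the smallest this design allows. That value follows from the lack of overlap by which the 5 were picked, so it adds no evidence. Because their groups did not overlap, they were also higher in Htt-72Q within each of the 2 library classes. For the same reason they were higher in Htt-72Q in 4 of 4 preparations shared with control vector and 3 of 3 shared with Htt-25Q. A preparation is the number that opens a library's description. Gata2 and Tbx18 were higher in 3 of 4 and 3 of 3.

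The 5 members with the highest mean level per kilobase of length (CPM per kilobase, RPKM) over the 12 libraries were Foxj1 (1.27 RPKM), Foxf1 (0.237), Tbx6 (0.208), Tbx2 (0.190) and Foxp2 (0.186). Of these, only Foxf1 was called. Foxj1, the master gene of motile cilia, was at 4.07, 2.94, 2.78 and 2.14 CPM in control vector 1 to 4, at 5.02, 2.77, 2.03 and 4.0 CPM in Htt-25Q 1 to 4 and at 4.94, 4.13, 0.804 and 4.44 CPM in Htt-72Q 1 to 4. Htt-72Q 3 was the lowest of the 12 and the other Htt-72Q libraries lay among the upper values. The log2 fold change was 0.27 ± 0.41 against control vector (adjusted p = 0.762) and 0.069 ± 0.41 against Htt-25Q (adjusted p = 0.966).

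Tbx6, a gene of presomitic mesoderm, went the other way in its means. It was at 0.0642, 0.200, 0.161 and 0.287 CPM in Htt-72Q 1 to 4, at 0.402, 0.661, 0.206 and 0.238 CPM in control vector 1 to 4 and at 0.611, 0.894, 0.339 and 0.451 CPM in Htt-25Q 1 to 4. Every Htt-72Q library lay below every Htt-25Q library, while control vector 3 and 4 lay within the Htt-72Q range. The log2 fold change was -1.61 ± 0.58 against Htt-25Q (adjusted p = 0.0971) and -1.02 ± 0.60 against control vector (adjusted p = 0.356), so neither passed the test. Tbx6 was the 1 member lying wholly lower in Htt-72Q, against Htt-25Q, where 9.22% of all tested genes did so, and against control vector 0 members and 8.28% of all tested genes did.

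Tbx2, a T-box repressor related to Tbx3, was at 1.09, 0.999, 2.17 and 0.573 CPM in Htt-72Q 1 to 4, at 0.313, 0.300, 0.155 and 0.793 CPM in control vector 1 to 4 and at 0.393, 0.235, 0.677 and 0.563 CPM in Htt-25Q 1 to 4. Htt-72Q 1, 2 and 3 were above all other libraries, and Htt-72Q 4 lay within both other groups. The log2 fold change was 1.66 ± 0.55 against control vector (adjusted p = 0.0702) and 1.33 ± 0.53 against Htt-25Q (adjusted p = 0.139). Tbx2 passed the threshold against control vector without control vector 4 (adjusted p = 0.0265), without Htt-72Q 4 (0.0454), with DESeq2 (0.0244) and with a block by preparation that joins preparations 27 and 27_1 (0.0485). It also passed after the filterByExpr filter (0.0379). Tbx2 gets through that filter only with the Htt-72Q libraries counted, so that value adds no support.

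Foxp2, a regulator in deep-layer cortical and striatal neurons, was at 4.92, 1.74, 1.85 and 1.35 CPM in control vector 1 to 4, at 3.06, 2.02, 1.39 and 1.58 CPM in Htt-25Q 1 to 4 and at 3.85, 3.26, 2.73 and 2.29 CPM in Htt-72Q 1 to 4. Control vector 1 held the highest value of the 12, and the groups overlapped. The log2 fold change was 0.27 ± 0.38 against control vector (adjusted p = 0.725) and 0.59 ± 0.39 against Htt-25Q (adjusted p = 0.424).

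The other T-box members had few counts and did not pass the test. Tbx5, a heart and forelimb gene that lies 149.9 kb from Tbx3, had 11 counts in Htt-72Q, 1 in control vector and 0 in Htt-25Q, at least 5.07-fold higher than in Htt-25Q (adjusted p = 0.0503). Tbx4, the hindlimb gene 44.5 kb from Tbx2, had 12 counts in Htt-72Q, 1 in control vector and 3 in Htt-25Q, a ratio to control vector of 13.3 (95% counting interval 1.97 to 569.8, adjusted p = 0.0954). Tbx15, a skeletal and skin gene, had 16, 6 and 4 counts in the same order. Tbx1, of the pharyngeal arches, had 6, 1 and 2 counts. Tbx21, the regulator of T helper cells, had 5, 1 and 10, with the most in Htt-25Q. Eomes, the intermediate progenitor gene, had 18, 26 and 23, with log2 fold changes of -0.37 ± 0.88 against control vector (adjusted p = 0.870) and 0.11 ± 0.89 against Htt-25Q (adjusted p = 0.983).

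Among the other Gata members, Gata4, a heart and endoderm gene, had 8 counts in Htt-72Q, 0 in control vector and 1 in Htt-25Q, at least 2.96-fold higher than in control vector (adjusted p = 0.0872). Gata6, its partner in those lineages, had 4 counts in Htt-72Q, spread over 3 libraries, and 0 elsewhere (adjusted p = 0.196 and 0.163). Gata3, a gene of T cells and the inner ear, had 2 counts in Htt-72Q, 2 in control vector and 0 in Htt-25Q. Gata1, the erythroid regulator, had 1, 1 and 0.

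The other Forkhead members, Foxb1 apart, held between 1 and 40 counts in Htt-72Q. Foxa2, the floor plate and endoderm partner of Foxa1, had 8 counts in Htt-72Q and 0 in both other groups, at least 2.96-fold higher than in control vector (adjusted p = 0.0775) and at least 3.69-fold higher than in Htt-25Q (adjusted p = 0.0561). Foxe1, a thyroid gene, had 40 counts in Htt-72Q, 18 in control vector and 34 in Htt-25Q, with log2 fold changes of 1.23 ± 0.51 (adjusted p = 0.155) and 0.65 ± 0.48 (adjusted p = 0.489). Foxc1 and Foxf2, genes of meninges and of pericytes that lie 175 kb apart on chromosome 13, had 31 and 18 counts in Htt-72Q, 22 and 10 in control vector and 37 and 19 in Htt-25Q. Their log2 fold changes against control vector were 0.42 ± 0.76 (adjusted p = 0.806) and 0.91 ± 0.98 (adjusted p = 0.607). Foxl2, an ovary gene, had 5, 0 and 2 counts in Htt-72Q, control vector and Htt-25Q. Foxa3, of liver, had 3, 2 and 2, Foxi1, of the inner ear, 2, 1 and 1, and Foxl1 3, 1 and 0. Foxd3, of the neural crest, Foxd2 and Foxc2 had 3, 2 and 1 counts in Htt-72Q and 0 elsewhere, which does not exceed the floor of 3 counts.

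Over the 32 tested members the median fitted log2 fold change was 2.14 against control vector and 2.04 against Htt-25Q, beside 0.0084 and 0 over all tested genes. With each member that had 0 counts in a group set to its bound, the medians were 1.35 and 0.99. Against each group 30 of the 32 fitted values were positive.

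Htt-25Q against control vector gave 0 called members, and 0 of all tested genes were called in either direction (0% each, edgeR). At an unadjusted p under 0.05 there were 479 genes, among them 1 member, Gata2. DESeq2 and limma voom called 0 genes too, with 204 and 754 at an unadjusted p under 0.05. The members split into 15 with a positive and 11 with a negative log2 fold change, with a median of 0, and no member's groups lay apart, beside 0.654% of all tested genes higher and 0.391% lower. In this comparison Foxf1 had 12 against 6 counts, Tbx6 50 against 27 and Tbx18 4 against 7.

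Calls among the remaining genes of the same families were in the other direction. Of 33 tested T-box, Gata and Forkhead genes outside the 34 (Gata cofactors included), 0 were called higher against control vector and 5 lower, with the smallest p in Foxp1, Foxo6 and Tbr1. Foxp1, the relative of Foxp2 in cortical projection neurons, was at 29.2 ± 4.15 CPM in Htt-72Q, where it was at 110.5 ± 40.7 CPM in control vector and at 105.0 ± 11.0 CPM in Htt-25Q (SD, n = 4). Its log2 fold change was -1.92 ± 0.21 against control vector (adjusted p = 1.08e-05, edgeR). Tbr1, a T-box gene of deep-layer neurons and one of the excitatory markers, fell by 1.05 (SE 0.21, adjusted p = 0.00335). Only 14 of these 33 genes had a mean under 1 CPM, and 0 of those 14 were called, while 30 of the 32 tested members lay under 1 CPM. The difference between the lists was not tested.

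Homeobox genes and a list of other regulators both held called genes. Of 27 tested Hox cluster genes, 7 were higher and 0 lower against control vector (25.9% higher), and 9 and 0 against Htt-25Q. Of 104 tested other homeobox genes, 22 were higher and 5 lower against control vector (21.2% higher), and 15 and 8 against Htt-25Q (14.4%). The list of 71 tested other developmental regulators was set up as lacking a homeobox, but some of its Pax genes carry part of one. Of these 71, 8 were higher and 1 lower against control vector (11.3%), and 13 and 2 against Htt-25Q (18.3%). Beside these stand the 6 of 32 members (18.75%) in each comparison. Among genes with a mean under 1 CPM the higher calls against control vector were 6 of 30 members, 6 of 25 Hox genes, 16 of 75 other homeobox genes and 2 of 44 other regulators. Against Htt-25Q they were 6 of 30, 8 of 25, 11 of 75 and 7 of 44. The lists' shares were not tested against each other.

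**Figure D4:**
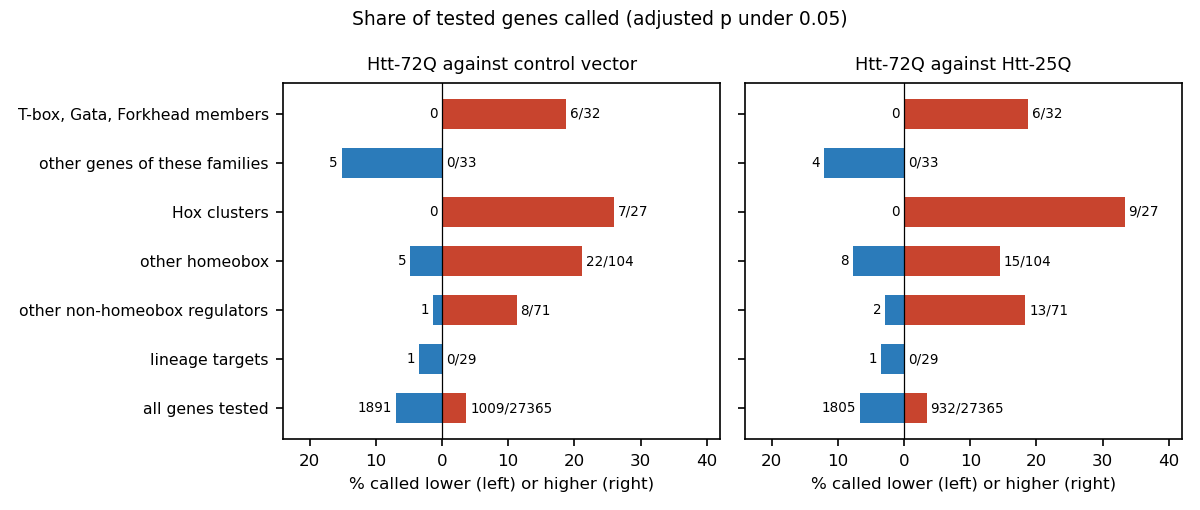
Percent of tested genes called lower (bars to the left) or higher (bars to the right) in Htt-72Q against control vector and against Htt-25Q, for the 34 genes, 5 other lists and all tested genes, with the numbers called at the bar ends. In both panels the 34 genes have 6 of 32 called higher and 0 lower, beside 1009 and 932 of 27365 for all genes.

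No gene on 1 list of targets that the members are known to switch on passed the test as higher. Of 29 tested genes of heart muscle, red cells, T helper cells, liver and motile cilia, 0 were called higher in either comparison. Of these 29 genes, 24 had a mean under 1 CPM, where few reads limit the test. The list does not cover targets of every member, and genes outside it were not examined as targets. Rsph1, a component of ciliary radial spokes, was the 1 gene called lower (log2 fold change of -1.50 ± 0.34, adjusted p = 0.00845 against control vector, and -1.40 ± 0.34, adjusted p = 0.0130 against Htt-25Q, edgeR).

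Markers of cells in which the members are usually active were given beside these counts. The summed level of 10 fibroblast, meningeal and mural markers was 12.7 ± 3.55 CPM in Htt-72Q (10.6 to 18), 14.3 ± 7.01 in control vector (7.93 to 24.3) and 12.2 ± 2.23 in Htt-25Q (10.8 to 15.5), where Tagln was called higher and Rgs5 lower against both groups, and Acta2 higher against Htt-25Q. The 8 endothelial markers summed to 2.72 ± 1.31 (1.305 before rounding), 2.61 ± 0.586 and 2.86 ± 0.861 CPM in Htt-72Q, control vector and Htt-25Q, with 0 called. The 8 blood cell markers summed to 1.59 ± 0.520, 1.16 ± 0.453 and 0.904 ± 0.174 CPM, with Hba-a2, Hbb-bt and Nkg7 at 0 in all groups and 0 of the 5 tested called. The 8 microglia and macrophage markers summed to 13.8 ± 8.43 CPM (7.13 to 26.1), 8.73 ± 3.86 (3.855 before rounding; 3.89 to 13.3) and 9.52 ± 2.27 (9.515 before rounding; 7.46 to 12.2), with 0 called. The 8 ependymal markers summed to 6.57 ± 0.808 CPM in Htt-72Q, below both 11.2 ± 1.07 in control vector and 11.2 ± 0.716 in Htt-25Q, with Rsph1 and Ccdc153 called lower against control vector. The part of these cells in the members' differences was not tested.

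Promoter sequences were found for 21 of the 34 genes in the RefSeq table, 25 promoters in all, and CG density was high in most of them. The observed count of CG over that expected from the base composition had a median of 0.714 over the members' promoters and 0.384 over all 32841 promoters of the table. It was above 0.6 in 20 of the 25 (80%) and in 35.8% of all promoters. The 6 promoters of called genes (Foxa1, Foxd1, Tbx18, Tbx20 and 2 of Gata2) were all above 0.6, with a median of 0.757, and 14 of the 19 promoters of uncalled members were, with a median of 0.680. The 4 printed promoters had 0.929 (Foxa1), 0.745 (Tbx20), 0.624 (Foxd1) and 0.167 (Gata1). Promoters of Hox and other homeobox genes had a median of 0.727. These are descriptions with no test, and 2 of the 7 called genes, Foxf1 and Tbx3, had no promoter in the table.

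**Figure D5:**
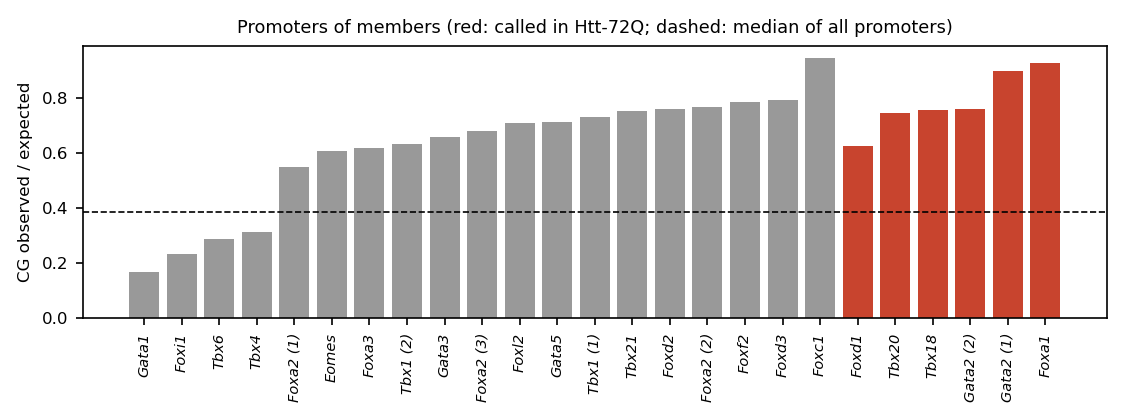
Observed over expected CG (vertical axis, no unit) in the 25 promoters found, 1 bar each, numbered where a gene has more than 1; red bars belong to genes called in a comparison with Htt-72Q and the dashed line is the median of all promoters in the table. The 6 red bars stand between 0.624 and 0.929, above the median of 0.384, and the 4 lowest grey bars are Gata1, Foxi1, Tbx6 and Tbx4.

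Motifs that the families bind were also counted in these promoters. The T-box half-site, AGGTGTGA or AGGTGTTA on either strand, was in 0 of the 25 and in 1.69% of all promoters. The GATA motif, AGATAA or TGATAA, was in 1 of 25, a promoter of Foxa2, and in 18.6% of all. The Forkhead motif, TGTTTAC or TATTTAC, was in 1 of 25, that of Foxa1 printed above, and in 6.55% of all. With 25 promoters, the T-box and Forkhead counts lie near the shares over all promoters. The GATA motifs are rich in A and T, while the median GC was 64% in the members' promoters and 52.7% in all. The part of base composition in these counts was not tested. Each motif was counted once per promoter, and no motif contains another.

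Genes next to the 7 called members were looked at as well, by a rule added after the data were seen. Of 22 tested neighbours within 100 kb, 1 was called higher and 1 lower in each comparison. Mipol1, which lies 43432 bases from Foxa1, had a log2 fold change of 1.18 (adjusted p = 0.00337, edgeR) against control vector and 1.07 (adjusted p = 0.00674) against Htt-25Q. ENSMUSG00000096952, next to Foxf1, fell by 1.13 (adjusted p = 0.0381) and 1.12 (adjusted p = 0.0405). Fendrr, the long noncoding RNA that starts beside Foxf1, had log2 fold changes of -0.69 (adjusted p = 0.475) and -0.97 (adjusted p = 0.277). Exons of 9 of the 34 members, Foxf1 and Tbx3 among them, overlap another annotated gene over 1.82% to 14.0% of their bases, and the strand setting of the counting is not given, so reads of such pairs cannot be told apart there. The overlapping genes were at 0.133 CPM or less on average.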

How the data were processed

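Each library's deposited table holds counts of reads per gene with chromosome positions, and beside them the authors gave CPM, scaled to the library total, and RPKM, which divides CPM by gene length in kilobases, per the file headers. Recomputed from the counts, the deposited CPM and RPKM of the 12 libraries differed by up to 5.09e-10 and 5.09e-11, so the counts were used, and levels in the text are CPM and RPKM with TMM-scaled library sizes. Per the submitters' processing notes, STAR 2.0.4b, Subread, featureCounts 1.45 and GRCm38 were used. Each library was sequenced in 2 lanes that were merged, per the labels. Whether counting used strand, how multi-mapping reads were treated and which annotation was used: not given in the sources used here. Symbols came from GENCODE M21.

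All 12 libraries were fitted together and tested by the quasi-likelihood method of edgeR 4.0.16 in R 4.3.3 (TMM scaling, 9 residual degrees of freedom), on the deposited counts of the 27365 genes with at least 1 count. No other filter was set, since filterByExpr (minimum count of 10) keeps 14707 genes and only 6 of the 34 members: Tbx2, Foxa1, Foxc1, Foxe1, Foxj1 and Foxp2. The plan was 1 fit over all genes with a single empirical Bayes prior. It was changed because that prior was judged to give too many false calls on simulated counts, for which no values are given here. Genes with at least 10 counts in all and the rest were fitted apart, each part with dispersions and a prior of its own. P-values are two-sided and adjusted by Benjamini-Hochberg over all 27365 genes, and a gene is called at an adjusted p under 0.05. Of the members, 2 had 0 counts, 13 had 1 to 9 and 19 had at least 10.

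A member with 0 counts in a group is given as a bound against 3 counts over the group, one with 1 to 3 counts as a ratio of counts per effective library size with a 95% exact counting interval, and any other as the fitted log2 fold change with its SE. Members called against either group, and the 5 with the highest mean RPKM, are given in full, and the others by counts. From the other lists, at most 3 called genes with the smallest p are named, and some tested genes that the counts include are not reported here by name. The members, lists and rules were chosen with earlier results of these data known. The list of homeobox genes lacks Drgx, whose symbol was not matched. No 2 libraries were duplicates (smallest chi-square per degree of freedom 8.315).

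Same-numbered libraries were checked for pairing by the correlation of their deviations from the group means. For libraries that share the preparation number in their description, 10 of 10 pairs exceeded 0.1 (median r 0.284, from 0.114 to 0.505). Of the 12 pairs that share the number in their title, 8 also share the preparation, as all 4 pairs of control vector and Htt-72Q do. The other 4 pairs involve Htt-25Q 3 or 4, whose preparations differ from those of the same title number, and 2 of these 4 exceeded 0.1 (from -0.493 to 0.426). What a preparation number marks is not given in the sources used here. Alternatives were other scalings, filters and thresholds, DESeq2 1.42.0, limma voom (limma 3.58.1), blocks by title number and by preparation, the library class as a term, fits of 2 groups, and leaving out each library in turn.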

Additional observations from a re-analysis of the deposited data

Results flagged for a closer look

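In 4 of the 42 sets of 4 libraries examined (each of the 11 members given in full and 3 sums over members, in each group), 1 library stood apart from the other 3 by Dixon's 95% criterion. That criterion flags about 1 in 20 sets of normally distributed values, a rate that does not hold for counts near 0. A set with a single count in 1 library is always flagged, and a set with 0 counts never is. Tbx3 was at 0.0601 CPM in control vector 2 (0.06007 before rounding) and at 0 in the other control libraries, and Foxd1 at 0.0376 CPM in Htt-25Q 3 (0.03764 before rounding) and at 0 in the other Htt-25Q libraries. Each of these rests on 1 count. Foxf1 was at 0.238 CPM in control vector 4, where the next control library was at 0.0601 CPM. Foxp2 was at 4.92 CPM in control vector 1, where the next was at 1.86 CPM (1.855 before rounding).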

How the results depend on the processing

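The calls of Foxa1 were kept in both comparisons under each of 23 alternatives. One of these is filterByExpr, which Foxa1 passes through Htt-72Q alone, so that alternative adds no support. Foxd1, Foxf1 and Tbx20 do not pass filterByExpr and were not tested under it; under the other 22 alternatives Foxd1 and Foxf1 kept their calls, and Tbx20 kept its calls under all but the stricter threshold. At an adjusted p under 0.01, 1607 genes and 3 members were called against control vector and 1545 genes against Htt-25Q. After filterByExpr, which leaves 6 members, 2 and 1 of them were called, with medians of 0.88 and 0.64. Over all 14707 genes kept by the filter, 1389 and 1333 were called higher. The 2 members were Foxa1 and Tbx2, and the 1 was Foxa1, and both genes pass the filter only through Htt-72Q. With limma voom 10 of the 32 tested members were called higher against Htt-25Q, beside 1046 of all 27365 genes higher and 1848 lower. Leaving out 1 library gave 2183 to 2653 genes and 4 to 6 members against control vector, 1858 to 2602 genes and 5 to 9 members against Htt-25Q, and 0 for Htt-25Q against control vector. With a replicate block by preparation, 4023 genes and 6 members were called against control vector and 2774 genes and 6 members against Htt-25Q; with preparations 27 and 27_1 joined, 4509 genes were called against control vector. Among the members given in full, the preparation block changed no call, and the joined block changed only that of Tbx2 against control vector. With a block by title number, which pairs control vector with Htt-72Q by preparation but not Htt-25Q 3 and 4, 5 members were called against control vector, where the call of Tbx3 was lost (adjusted p = 0.071; 0.0476 with the preparation block), and 6 against Htt-25Q. Over all genes this block called 1198 higher and 2140 lower against control vector, and 1102 and 2078 against Htt-25Q. Without Foxj1 as well as Foxp2 and Eomes, the summed level was 1.99 CPM in control vector and 2.69 CPM in Htt-25Q (an alternative added after seeing the data, like DESeq2 without independent filtering). The single prior was the planned fit, which the main fit replaced. Run as an alternative, it called 3266 genes and 6 members against control vector. Against Htt-25Q it called 3080 genes and 7 members.

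Signs that turned were of values near 0 that passed no test. For Foxj1 against Htt-25Q the log2 fold change was -0.0347 with limma voom, -0.0249 and -0.11 without Htt-25Q 2 or 3, and -0.12 and -0.0459 without Htt-72Q 1 or 4, and it reached 0.39 (0.3862 before rounding) without Htt-72Q 3. For Htt-25Q against control vector, Foxj1 was at -0.18 with the preparation block, -0.0248 with 27 and 27_1 joined and -0.0428 without Htt-25Q 1 (up to 0.39, 0.3936 before rounding, without control vector 1), Foxf1 at -0.0647 with the joined block, and Foxp2 at 0.28 without control vector 1 (down to -0.59 without Htt-25Q 1). The cause was not tested. Of the recomputed values, 851 were classed as the same, 24 lost a call, 6 gained one, 10 turned sign and 11 moved. For a gene, the same means that direction and side of the threshold were kept, or that a fold change was near 0. For a count of calls, a median or a sum it means a change within a set margin, so such a count can fall and still be classed as the same. Depth limits the members: 15 of the 34 had under 10 counts in all 12 libraries together.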
